A study of Mus musculus with 6 samples.

Results

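Skeletal muscle genes were described in messenger RNA of the distal colon from 3 wildtype C57Bl/6 mice and 3 TNFR2-/- mice, which lack a receptor for tumor necrosis factor that is encoded by Tnfrsf1b. All 6 mice were males aged 8 weeks, the strain was given as C57Bl/6 for both groups, no treatment was named, and there were 3 libraries for the 3 mice of each genotype. The genes were 43 parts of the sarcomere, the calcium machinery and the energy supply of striated muscle fibres, chosen by name. The deposited table holds 24617 rows, of which 23108 carry a gene name. Of the 43 genes 42 had a row of their own. Trdn had 2 rows, so 43 rows were followed. Tnni2 shared a single row with Syt8 and is given apart. The values are FPKM, fragment counts divided by transcript length and library size, so levels of different genes can be set beside each other per length. The knockout allele is not described in the sources used here.

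Striated muscle shortens when myosin heavy chains of the thick filament pull on actin of the thin filament, once troponin has bound calcium. Calcium leaves the sarcoplasmic reticulum through the ryanodine receptor when the voltage sensor of the membrane moves, and a pump returns it. Fast and slow fibres build this machine from different members of the same gene families, so the isoforms present tell the fibre type. The wall of the colon itself is moved by smooth muscle, whereas the external anal sphincter and the pelvic floor around its end are striated.

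The targeted gene, Tnfrsf1b, measured 7.49, 8.20 and 8.17 FPKM in the wildtype libraries, given throughout in the order 1, 2, 3, and 1.17, 1.12 and 0.924 FPKM in the knockout libraries, so that each library matched its label. The depth stated for the libraries was about 50M reads of 50 bp, and the summed FPKM of the libraries lay between 655274 and 709593. Of the markers of the labelled tissue, the libraries held 558 to 772 FPKM of Epcam, an epithelial adhesion protein, and 2.91 to 6.94 FPKM of Cdx2, an intestinal transcription factor. Library 1 of the knockout stood apart as the lowest, and library 1 of the wildtype as the highest, in nearly all of the muscle genes. For that reason counts are also given without these 2 libraries, a choice made after the values were seen. Because tissue pieces were sequenced whole, fewer muscle cells and less RNA per muscle cell cannot be told apart.

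Skeletal muscle RNA was present in all 6 libraries and its amount differed widely between mice. The 43 rows held 2.26%, 0.714% and 0.846% of the summed FPKM of named rows in the wildtype and 0.0984%, 0.611% and 0.431% in the knockout libraries. In knockout library 1 most of this came from Eno3 and Tnni1, with 183 and 133 of the members' 556 FPKM. In wildtype library 1 they held 486 and 87.9 of 12857 FPKM. The levels of Eno3 and Tnni1 differed far less between the libraries than those of most members. The group means were 1.27% ± 0.855 and 0.380% ± 0.260 (SD, n = 3 each). All 3 knockout values lay below all 3 wildtype values, but wildtype library 2 and knockout library 2 were close. Set against wildtype library 1, the median gene stood at 31.2% in wildtype library 2 and 37.7% in wildtype library 3, and at 1.98%, 26.3% and 20.1% in the knockout libraries. Without wildtype library 1 and knockout library 1 the difference in the share of summed FPKM moved from -0.892 to -0.259 percentage points, and without wildtype library 1 alone it was -0.400. Gene lists of skin and hair follicle were also lowest in knockout library 1, with summed levels given after the muscle genes, and their part in the result was not tested.

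**Figure D1:**
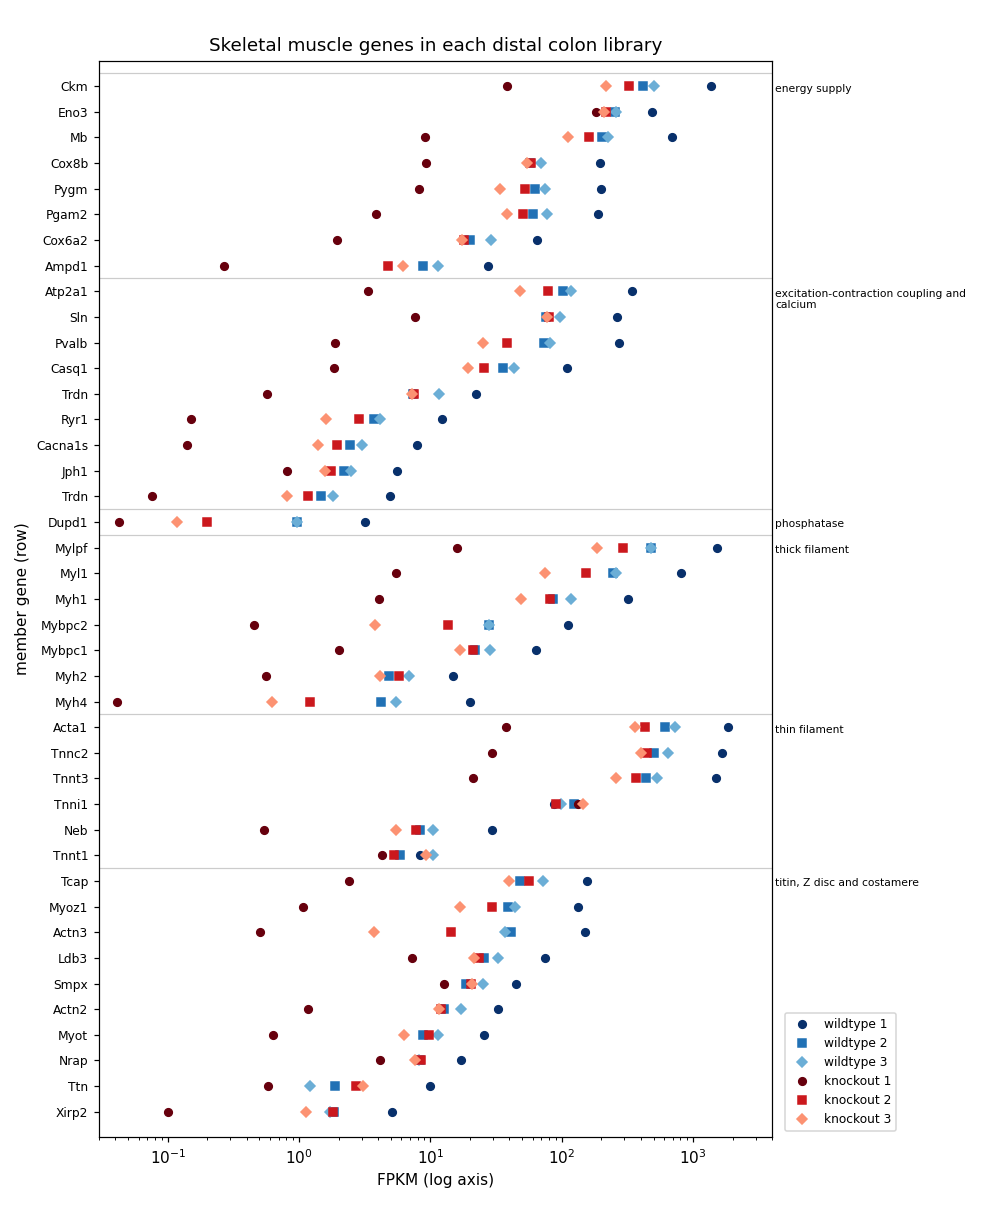
FPKM on a log axis of the 41 tested rows of skeletal muscle genes, grouped by role, with 1 symbol per library (blue, wildtype 1 to 3; red, knockout 1 to 3). Knockout library 1 is the lowest in 40 of the 41 rows and wildtype library 1 the highest in 39, and Tnni1 and Tnnt1 do not spread in the way the others do.

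Most of the genes shared a course across the libraries. Of the 41 rows that reached a mean of 0.5 FPKM and were tested, 25 showed a single order: wildtype 1, wildtype 3, wildtype 2, knockout 2, knockout 3, knockout 1. Wildtype library 1 exceeded knockout library 1 by a median of 50.6-fold, and by more than 20-fold in 33 of the 41 rows. In 5 rows the gap was under 5-fold. These were Eno3 (2.66-fold), Nrap (4.17-fold), Smpx (3.57-fold), Tnnt1 (1.97-fold) and Tnni1, which was lower in wildtype library 1 than in knockout library 1 (0.659-fold). The rows that failed the minimum belonged to Myh7 and Myl2. Dupd1 reached the minimum only through its wildtype values.

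No member was called between the genotypes. Values were compared as log2(FPKM + 1) in limma, a linear model fitted to all 14564 tested rows, with Benjamini-Hochberg adjustment and a threshold of 0.05, which called 0.288% of all tested rows, 0.103% lower and 0.185% higher in the knockout. Of the 41 member rows 40 had a lower mean in the knockout, against 57.2% of all rows, and the median log2 change was -1.75, against -0.03 over all rows. The adjusted p-values of the members in limma ran from 0.234 for Myh4 to 0.767 for Ttn, Dupd1 left aside, and 7 rows, all lower and Dupd1 among them, had an unadjusted p under 0.05, against 9.91% of all rows lower and 16.2% in either direction. In 29 of the 41 rows all knockout values lay below all wildtype values, against 12.5% of all rows, and in 0 rows above them, against 9.3%. The rows share their libraries and their course, so they are not separate observations. Fitted without wildtype library 1 and knockout library 1, limma called 1 member lower, Myh4 (log2 change -1.62 ± 0.19, SE, adjusted p = 0.0438), against 0.103% of all rows called lower. At an unadjusted p under 0.05, 22 of 41 rows were lower there, against 4.71% of all rows. The median change of the members was -0.47 in that fit, and -0.93 without knockout library 1 alone.

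The authors' deposited table gives another count for the same libraries. With Cuffdiff 2, 33 of the 42 members (34 of 43 rows) are listed there as significantly lower in the knockout and 0 as higher, while 0.943% of all named rows are listed as lower and 0.0952% as higher. Of the 218 named rows called lower in the authors' deposited table, 34 were rows of these members, 1 was the row shared by Syt8 and Tnni2, and 24 were other skeletal muscle genes from the lists described further on. In the authors' deposited table Myh4, Actn3, Mybpc2, Pvalb and Myl1 carry an adjusted p listed at 0. Ttn carries a log2 fold change of 0 and a p-value of 1 there, although its listed group FPKM are 4.23 in the wildtype and 2.10 in the knockout. This entry is therefore not read as a tested absence of change. The members not called in the authors' deposited table were Ampd1, Eno3, Myh7, Myl2, Nrap, Smpx, Tnni1, Tnnt1 and Ttn.

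Of the 6 thin filament genes tested 5 had lower means in the knockout (57.2% of all rows), and 4 were lower without overlap (12.5% of all rows). Limma called 0, with 0 at an unadjusted p under 0.05 (9.91% of all rows lower). The fast isoforms were among the highest genes of the set. Acta1, skeletal muscle actin, measured 1840.0, 607 and 732 FPKM in the wildtype and 37.7, 428 and 358 FPKM in the knockout libraries. Tnnc2, the calcium-binding troponin C of fast fibres, measured 1645, 505 and 639.8 FPKM against 29.5, 449 and 399.5 FPKM. For Tnnt3, the fast troponin T that ties the complex to tropomyosin, the values were 1498, 435 and 535 FPKM and 21.0, 365 and 259 FPKM. In each of these 3 genes the groups did not overlap, and knockout library 1 lay far below the other 5 libraries. The changes in limma were -2.37 ± 1.15, -2.20 ± 1.29 and -2.46 ± 1.31 on the log2 scale (SE, adjusted p = 0.387, 0.453 and 0.418). The row shared by Syt8 and Tnni2, the fast inhibitory troponin, followed the same course, with 1282, 383 and 490.1 FPKM and 27.7, 331 and 273 FPKM. Neb, nebulin, the ruler along the thin filament, had lower levels of 29.4, 8.36 and 10.5 FPKM and 0.541, 7.71 and 5.44 FPKM.

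The slow troponins took a different course. Tnni1, the slow inhibitory troponin, measured 87.9, 123 and 98.1 FPKM in the wildtype and 133, 89.7 and 146 FPKM in the knockout. The lowest value of Tnni1 was in wildtype library 1, where nearly every other member was highest. Tnnt1, the slow troponin T, measured 8.39, 5.90 and 10.5 FPKM and 4.26, 5.25 and 9.24 FPKM, within a 2.46-fold range. Tnnc1, the slow and cardiac troponin C, which was not a member, stayed between 0.536 and 1.41 FPKM. In knockout library 1 the slow share of troponin T was 16.9%, against 0.557% to 3.45% in the other 5 libraries, and the slow share of troponin I was 82.8%, against 6.41% to 34.9%. The fast partners were low there, with Tnnt3 at 21.0 FPKM and the row shared by Syt8 and Tnni2 at 27.7 FPKM. Tnni1 and Tnnt1 did not follow the other members, so these shares are not read as slow fibre content. Which cells held the Tnni1 RNA was not tested. The groups overlapped in the shares of troponin T, I and C (exact permutation p = 0.2 and adjusted p = 0.25 for each).

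All 7 thick filament genes tested had lower means in the knockout (57.2% of all rows), 6 of them without overlap (12.5% of all rows). Limma called 0, with 2 lower at an unadjusted p under 0.05 (9.91% of all rows). The genes of fast fibres were far higher than those of slow fibres. Mylpf, the fast regulatory light chain, measured 1508, 474 and 479 FPKM in the wildtype and 16.0, 291 and 187 FPKM in the knockout libraries, and Myl1, the fast essential light chain, 809, 247 and 259.5 FPKM and 5.48, 154 and 74.9 FPKM. Myl2, the slow regulatory light chain, was listed at 0 in 4 libraries and at 0.0599 and 0.0302 FPKM in the others. Myh7, the slow myosin heavy chain, stayed between 0.0258 and 0.0531 FPKM in all 6 libraries. Both defining genes of slow fibres were thus near 0 in both genotypes.

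Among the adult heavy chains Myh1, a chain of fast fibres, was the highest in every library. It measured 319.9, 86.2 and 118 FPKM in the wildtype and 4.04, 81.8 and 49.1 FPKM in the knockout libraries, and made up 86.6% to 92.1% of the summed FPKM of Myh1, Myh2, Myh4 and Myh7. Myh2, the chain of oxidative fast fibres, measured 14.9, 4.87 and 6.91 FPKM and 0.559, 5.77 and 4.14 FPKM, with overlapping groups. Myh4, the chain of the fastest, glycolytic fibres, measured 20.1, 4.22 and 5.44 FPKM and 0.0411, 1.21 and 0.623 FPKM. The groups did not overlap in Myh4, and its knockout mean was 6.29% of wildtype, the lowest share among the 41 rows.

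These chains lie side by side on chromosome 11, in the order Myh3, Myh2, Myh1, Myh4, Myh8, Myh13, with Myh1 at chr11:67200102-67224577 and Myh4 at chr11:67237812-67260447 (RefSeq, GRCm38.p6, the assembly also called mm10). Myh8, the chain of neonatal muscle, was not a member and was picked after its values were seen. Its level was 224, 81.5 and 97.7 FPKM in the wildtype and 4.83, 77.4 and 58.8 FPKM in the knockout libraries, below Myh1 in the wildtype libraries and knockout library 2 and above it in knockout libraries 1 and 3. Myh3, the embryonic chain, and Myh13, the chain of extraocular muscle, stayed at or under 0.336 FPKM. The 250 bases before the starts of Myh1 and Myh4 are shown because the share of Myh4 among the adult chains did not overlap between the genotypes while that of its neighbour Myh1 did, and those of Acta1 because other genes are later set against it.
Myh1 (chr11:67199852-67200101, plus strand): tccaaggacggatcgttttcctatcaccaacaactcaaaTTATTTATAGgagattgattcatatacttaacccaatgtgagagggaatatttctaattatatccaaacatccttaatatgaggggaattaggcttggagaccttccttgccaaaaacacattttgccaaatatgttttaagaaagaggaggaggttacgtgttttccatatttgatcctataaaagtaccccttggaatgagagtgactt
Myh4 (chr11:67237562-67237811, plus strand): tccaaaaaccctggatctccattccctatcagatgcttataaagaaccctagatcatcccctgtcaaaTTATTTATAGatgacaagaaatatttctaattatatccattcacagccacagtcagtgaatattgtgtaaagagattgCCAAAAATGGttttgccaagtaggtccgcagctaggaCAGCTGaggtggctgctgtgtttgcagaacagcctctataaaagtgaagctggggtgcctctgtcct
Acta1 (chr8:123894776-123895025, minus strand): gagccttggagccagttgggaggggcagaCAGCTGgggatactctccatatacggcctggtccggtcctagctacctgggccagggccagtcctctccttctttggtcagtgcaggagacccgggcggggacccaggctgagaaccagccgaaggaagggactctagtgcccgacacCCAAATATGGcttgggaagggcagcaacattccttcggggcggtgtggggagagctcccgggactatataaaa
Capitals mark matches, on either strand, to the MEF2 site, to the CArG box bound by serum response factor and to CAGCTG, an E-box form bound by myogenic factors. None of the marked matches overlap. Myh1 and Myh4 each hold a MEF2 match with the same letters, beginning 211 and 182 bases before the start. Myh4 also holds a CArG match at 104 and a CAGCTG at 67 bases before the start, and Acta1 holds a CArG match at 73 and a CAGCTG at 221 bases. Windows were found in RefSeq for 31 of the 43 members, 38 windows in all. A MEF2 match was present in 7 of them (18.4%), against 1.69% of all 32851 windows of the same length, a CArG match in 4 (10.5%, against 1.47%) and CAGCTG in 18 (47.4%, against 4271 of the 32851). A match is a run of letters, and binding was not measured.

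The make-up of the fast heavy chains did not overlap between the genotypes for Myh4 and Myh2. Myh4 held 5.67, 4.43 and 4.17% of the summed FPKM of the 4 adult chains in the wildtype and 0.881, 1.36 and 1.16% in the knockout libraries, means of 4.76% ± 0.803 and 1.13% ± 0.241 (SD, n = 3 each). Myh2 went the other way, with 4.20, 5.11 and 5.29% in the wildtype and 11.97, 6.50 and 7.67% in the knockout libraries. The exact two-sided permutation test gave p = 0.1 for each, the smallest value that 3 against 3 allows, and adjusted p = 0.2 over the 10 shares compared. The shares rest on a summed 355, 95.3 and 131 FPKM in the wildtype and on 4.67, 88.8 and 53.9 FPKM in the knockout libraries, so that of knockout library 1 has the least behind it. Leaving out any single library kept the Myh4 difference between -3.92 and -3.17 percentage points. The Myh2 difference ranged from 2.22 to 4.95 points in the same way, and fell from 3.85 to 2.22 points without knockout library 1. Myh7 held 0.0150% to 0.0311% in the wildtype and 0.0355% to 0.554% in the knockout, also without overlap (exact permutation p = 0.1, adjusted p = 0.2). Myh7 itself was near 0 FPKM in every library. With Myh8 in the sum in place of Myh7, chosen after the values were seen, Myh8 held 38.7% to 46.1% and 46.6% to 52.2%. Myh4 then held 2.38% to 3.48% and 0.434% to 0.727%. Neither overlapped (exact permutation p = 0.1 for each).

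Myosin-binding protein C and the essential light chains also differed in their make-up. Mybpc1, the slow form of myosin-binding protein C, measured 63.5, 21.8 and 28.5 FPKM in the wildtype and 2.01, 21.2 and 16.7 FPKM in the knockout libraries, and Mybpc2, the fast form, 112, 27.8 and 27.8 FPKM and 0.458, 13.7 and 3.81 FPKM. The slow share was 36.1, 44.0 and 50.6% in the wildtype and 81.4, 60.8 and 81.4% in the knockout libraries, without overlap (exact permutation p = 0.1, adjusted p = 0.2). Myl3, the essential light chain of slow and ventricular muscle, was no member, and measured 485, 170.4 and 232 FPKM and 11.6, 177 and 161 FPKM, with overlapping groups. Its share of Myl1 and Myl3 was 37.5, 40.8 and 47.3% in the wildtype and 68.0, 53.5 and 68.2% in the knockout libraries, again without overlap (exact permutation p = 0.1, adjusted p = 0.2). In knockout library 1 the 2 shares rest on a summed 2.47 FPKM for myosin-binding protein C and 17.1 FPKM for the essential light chains. Myh7 and Myl2 were near 0 in both genotypes, so these shares are not read as slow fibre content either.

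**Figure D2:**
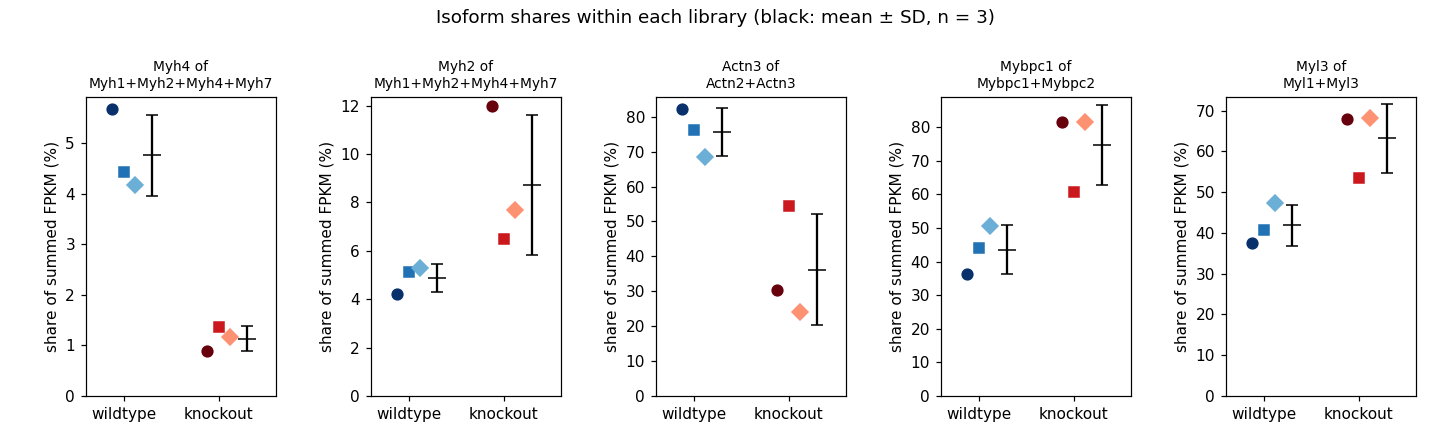
Share of 1 isoform in the summed FPKM of its family, in percent, by genotype; symbols are libraries (circle, 1; square, 2; diamond, 3) and black bars are means with SD, n = 3. The 5 panels show only shares in which the wildtype and knockout libraries do not overlap. Myh4 was at 4.17% to 5.67% in the wildtype and 0.881% to 1.36% in the knockout. The Actn3 share was added after the values were seen. The shares of Myh1, of troponin T, I and C and of the regulatory light chain overlapped and are not shown. The share of Myh7 and those of Myh8 and Myh4 in a sum that included Myh8 did not overlap and are not shown either.

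Of the 10 genes of titin, the Z disc and the costamere, all had lower means in the knockout (57.2% of all rows). Of these 4 did not overlap between the genotypes (12.5% of all rows). In limma 0 were called, with 1 lower at an unadjusted p under 0.05, near the 9.91% of all rows. Tcap, which caps titin at the Z disc, measured 155, 48.4 and 71.6 FPKM in the wildtype and 2.39, 56.6 and 39.4 FPKM in the knockout libraries, and its groups overlapped. Myoz1, a calcineurin-binding protein of fast fibres, measured 134, 39.1 and 43.9 FPKM against 1.08, 29.6 and 16.9 FPKM, without overlap. Actn3, the alpha-actinin of fast glycolytic fibres, measured 151, 41.1 and 37.1 FPKM against 0.504, 14.3 and 3.71 FPKM, a knockout mean of 8.08% of wildtype. Its log2 change in limma was -3.71 ± 1.10 (SE, adjusted p = 0.272), the most negative of the 41 rows. Actn2, the alpha-actinin of all fibres, measured 32.6, 12.8 and 17.1 FPKM and 1.16, 12.03 and 11.7 FPKM. The share of Actn3 in the sum of both was 82.3, 76.3 and 68.5% in the wildtype and 30.3, 54.3 and 24.1% in the knockout libraries, without overlap (exact permutation p = 0.1), a pair added after the values were seen.

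Ldb3, a PDZ and LIM protein of the Z disc, was at 74.99, 25.8 and 32.5 FPKM in the wildtype and 7.22, 23.4 and 21.4 FPKM in the knockout libraries, and kept 7.22 FPKM in knockout library 1. Smpx, a small muscle protein, measured 45.0, 18.5 and 25.2 FPKM and 12.6, 20.3 and 20.9 FPKM, and Nrap, of the actin ends at cell junctions, 17.2, 8.29 and 8.14 FPKM and 4.11, 8.45 and 7.61 FPKM. In Smpx and Nrap the knockout libraries 2 and 3 lay close to wildtype libraries 2 and 3. Ttn, titin, the spring of the sarcomere, was listed at 9.87, 1.88 and 1.21 FPKM and 0.582, 2.71 and 3.05 FPKM. Ttn was the only row of the 43 in which wildtype library 3 was below both knockout libraries 2 and 3, and its log2 change of -0.51 ± 0.77 (SE, limma adjusted p = 0.767) turned to 0.19 without wildtype library 1. Myot and Xirp2, a Z disc protein and an actin-binding repeat protein, stood at 0.639 and 0.1 FPKM in knockout library 1, against 25.8 and 5.07 FPKM in wildtype library 1.

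All 9 rows of calcium handling genes had lower means in the knockout (57.2% of all rows), 7 of them without overlap (12.5% of all rows). Limma called 0, with 2 lower at an unadjusted p under 0.05 (9.91% of all rows). Atp2a1, the calcium pump of fast fibres, measured 340.3, 102 and 117 FPKM in the wildtype and 3.37, 78.6 and 48.1 FPKM in the knockout libraries. Casq1, the calcium store of the fast reticulum, measured 109.8, 35.6 and 43.1 FPKM against 1.85, 25.8 and 19.3 FPKM. The groups did not overlap in either gene, and the changes in limma were -2.64 ± 1.33 and -2.28 ± 1.07 (SE, adjusted p = 0.397 and 0.376). Ryr1, the release channel, had lower levels of 12.2, 3.75 and 4.12 FPKM and 0.152, 2.88 and 1.6 FPKM, and Cacna1s, its voltage sensor, 7.86, 2.46 and 3.02 FPKM and 0.141, 1.95 and 1.40 FPKM. Trdn, triadin, which anchors the store to the channel, lay between 0.0755 and 22.4 FPKM over its 2 rows, and Jph1, which holds the membranes together, between 0.806 and 5.59 FPKM.

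The calcium buffer and the brake of the pump differed in course. Pvalb, parvalbumin, the buffer of fast fibres, measured 272, 73.1 and 81.1 FPKM in the wildtype and 1.88, 38.4 and 25.3 FPKM in the knockout libraries, a knockout mean of 15.4% of wildtype. Sln, sarcolipin, which slows the pump, measured 264, 75.9 and 97.5 FPKM and 7.61, 80.3 and 76.7 FPKM, 37.7% of wildtype. Wildtype and knockout libraries did not overlap in Pvalb, whereas in Sln knockout libraries 2 and 3 were above wildtype library 2. Neither passed in limma (log2 changes of -3.04 ± 1.25 and -1.73 ± 1.13, SE, adjusted p = 0.331 and 0.495).

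All 8 energy genes had lower means in the knockout (57.2% of all rows), 7 of them without overlap (12.5% of all rows). Limma called 0, with 1 lower at an unadjusted p under 0.05, near the 9.91% of all rows. Ckm, muscle creatine kinase, measured 1359, 416 and 499 FPKM in the wildtype and 38.2, 324 and 218 FPKM in the knockout libraries. Mb, myoglobin, the oxygen store of oxidative fibres, measured 687, 203 and 227 FPKM against 9.04, 160.1 and 112 FPKM. Cox8b, a muscle form of a cytochrome oxidase subunit, measured 196, 57.3 and 69.1 FPKM and 9.22, 58.5 and 54.2 FPKM, and was the only energy gene whose groups overlapped. Eno3, the muscle enolase of glycolysis, measured 486, 254 and 259.9 FPKM and 183, 215 and 209 FPKM and so kept 183 FPKM in the library that held the least of the other muscle genes. Pygm, muscle glycogen phosphorylase, Pgam2, muscle phosphoglycerate mutase, Ampd1, AMP deaminase, and Cox6a2, another oxidase subunit, had knockout means of 28.1%, 28.3%, 23.7% and 33.3% of wildtype. Dupd1, a dual specificity phosphatase, was low throughout, at 3.17, 0.970 and 0.968 FPKM and 0.0425, 0.198 and 0.118 FPKM, 7.0% of wildtype, and its test draws on a gene that reached the minimum only through the wildtype (limma adjusted p = 0.212).

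To set the amount of muscle aside, each gene was expressed as a percent of Acta1 in the same library, a step added after the values were seen. Of the other 40 rows 21 overlapped between the genotypes, 5 were lower in every knockout than in every wildtype library and 14 were higher. Over all 14563 other tested rows the shares were 0.117% lower and 90.7% higher, but Acta1 was itself lower in every knockout library, which raises the ratio of any gene that was not. These shares are therefore no reference for muscle genes, and nothing is read from them. The 5 lower genes were Myh4, Actn3, Mybpc2, Pvalb and Dupd1, of which Dupd1 reached the minimum only through its wildtype values and supports nothing here. Myh4 stood at 1.09, 0.696 and 0.743% of Acta1 in the wildtype and 0.109, 0.282 and 0.174% in the knockout libraries, and Actn3 at 8.22, 6.77 and 5.07% and 1.34, 3.34 and 1.04%. Mybpc2 stood at 6.10, 4.58 and 3.80% and 1.21, 3.19 and 1.06%, and Pvalb at 14.8, 12.04 and 11.1% and 5.0, 8.98 and 7.08%. Dupd1 stood at 0.172, 0.160 and 0.132% and 0.113, 0.0461 and 0.0328%.

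The 5 rows were also lower without overlap when Tnnc2, Ckm or the median member replaced Acta1. Over the 6 libraries Tnnc2 stood at 78.2% to 112% and Ckm at 60.9% to 101% of Acta1, and the median member was made from the same rows. These references share most of the course of Acta1, so the result is no separate support. The 5 rows stayed lower without wildtype library 1 and knockout library 1, which was fixed in advance, because leaving out libraries cannot create an overlap. The number of rows lower in this way was 14 with Tnnc2, 7 with Ckm, 9 with the median member and 5 without the 2 libraries. With the median member profile as a covariate in limma no member was called. The changes left in that fit were -1.40 ± 0.51 for Myh4 and -1.65 ± 0.63 for Actn3 (SE, limma adjusted p = 0.512 and 0.527).

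Several genes kept close to their proportion to Acta1. Tnnt3 stood at 81.4, 71.6 and 73.1% in the wildtype and 55.6, 85.1 and 72.2% in the knockout libraries, Casq1 at 5.97, 5.87 and 5.88% and 4.91, 6.02 and 5.38%, and Pgam2 at 10.3, 10.04 and 10.5% and 10.2, 11.8 and 10.6%. Myh1 ranged over 17.4, 14.2 and 16.1% and 10.7, 19.1 and 13.7%. The 14 higher rows were those of Myh2, Sln, Cox6a2, Cox8b, Mybpc1, Actn2, Myot, Ldb3, Jph1, Ttn, Nrap, Smpx, Eno3 and Tnni1. Myh2 stood at 0.810, 0.802 and 0.944% and 1.48, 1.35 and 1.15%, Sln at 14.3, 12.5 and 13.3% and 20.2, 18.8 and 21.4%, Cox6a2 at 3.50, 3.28 and 3.92% and 5.12, 4.23 and 4.90%, and Mybpc1 at 3.45, 3.60 and 3.89% and 5.33, 4.95 and 4.67%. Knockout over wildtype means of these 4 were 1.56, 1.5, 1.33 and 1.37. In Eno3, Smpx, Nrap, Jph1, Ldb3 and Tnni1 the ratio was by far the highest in knockout library 1, where Eno3 reached 486% and Tnni1 354% of Acta1.

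**Figure D3:**
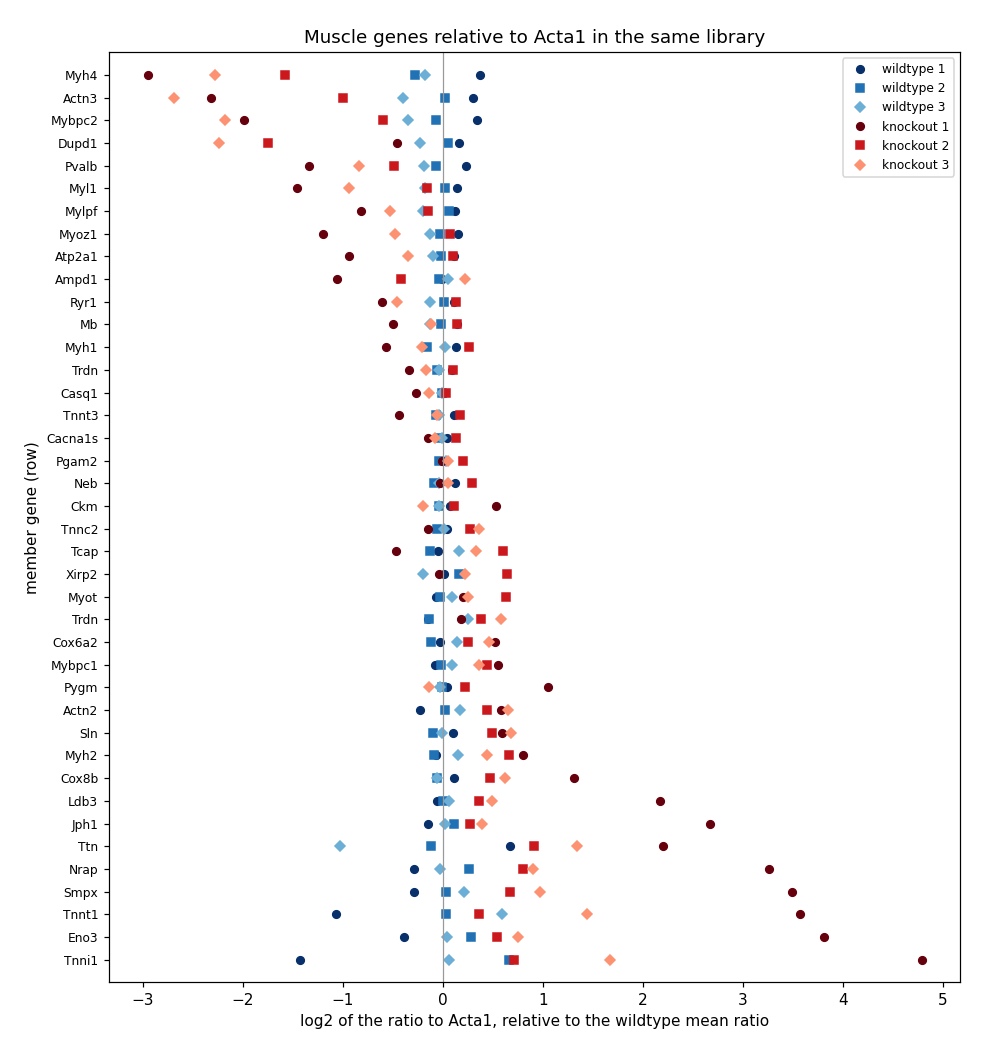
Ratio of each of 40 muscle gene rows to Acta1 in the same library, as log2 relative to the mean wildtype ratio, with genes sorted by the knockout to wildtype ratio and 1 symbol per library. Myh4, Actn3, Mybpc2, Pvalb and Dupd1, the last of which passed the minimum only through the wildtype, lie to the left in all 3 knockout libraries, and Eno3 and Tnni1 lie far to the right in knockout library 1.

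Other skeletal muscle genes were mostly lower in the mean as well. Of 88 further genes in 6 lists 84 had a row and 72 were tested. Limma called 0 of them, 69 had lower means in the knockout (57.2% of all rows), and the median log2 change was -0.63. An unadjusted p under 0.05 was reached in limma by 13, all lower (9.91% of all rows). Among 11 myogenic factors 7 were tested and all 7 had lower means. Myf6, the factor of mature fibres, measured 11.5, 2.78 and 4.17 FPKM in the wildtype and 0.256, 2.40 and 1.97 FPKM in the knockout libraries, whereas Myod1 reached 1.81 FPKM at most and was listed at 0 in knockout library 1. Among 10 genes of the neuromuscular junction with a row 6 were tested, with a median log2 change of -0.33. The acetylcholine receptor subunit Chrna1 measured 0.746, 0.346 and 0.782 FPKM and 0.112, 0.394 and 0.486 FPKM and was below the minimum for testing.

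The 12 rows outside the set whose course over the 6 libraries lay nearest to the median member were Kbtbd10 (Klhl41 in RefSeq), Myom2, Cacng1, Hfe2 (Hjv), Tmod4, A530098C11Rik (Mettl21c), Adssl1, Jsrp1, Dhrs7c, Trim54, Fitm1 and Rpl3l. Likeness was the root mean square distance between centred log2(FPKM + 1) values over the 6 libraries, among 9518 rows with a mean of at least 5 FPKM. The distance was 0.0923 for Kbtbd10 and 0.188 for Rpl3l. Kbtbd10 measured 40.5, 11.9 and 16.9 FPKM in the wildtype and 1.27, 12.1 and 9.67 FPKM in the knockout libraries. Of the 100 nearest rows 22 were members and 14 were other genes of the muscle lists. Among the 9518 rows there were 34 member rows. The median member was made from the members themselves, which places them near it by construction. Nothing is therefore read from the count of 22.

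Genes of other tissues varied beside the muscle. The summed FPKM of the members differed 23.1-fold between the highest and the lowest library, where Eno3 and Tnni1 made up most of the sum. For 13 of 14 skin keratinocyte genes with a row the summed level was 436 to 1186 FPKM in the wildtype and 65.2 to 1021 FPKM in the knockout, an 18.2-fold range, with Krtdap and Krt10 the highest. For 12 of 14 hair follicle genes it was 20.6 to 142 FPKM and 1.94 to 24.8 FPKM, with Krt71 and Krt25 the highest and Hoxc13 listed at 0 in knockout library 1. No skin gene was listed at 0. Of the 10 hair follicle genes tested all 10 had lower knockout means and their median log2 change was -2.15, against -1.75 for the members. In this list limma called 0, with 7 lower at an unadjusted p under 0.05 (9.91% of all rows). All 13 skin genes had lower means, with a median of -1.13, and limma called 0, with 0 at an unadjusted p under 0.05. The authors' deposited table lists 10 hair follicle and 3 skin genes as significantly lower. Knockout library 1 was lowest in the members and in the skin, hair follicle, smooth muscle, cardiac and adipocyte lists. Wildtype library 1 was highest in the members and in the smooth muscle, cardiac and adipocyte lists, whereas skin and hair genes were highest in wildtype library 3, and knockout library 3 was above wildtype library 2 in skin genes while below it in the members.

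Smooth muscle of the colon wall had the same highest and lowest library as the members, over a narrower range. Its 12 genes, of which Tagln and Actg2 were the highest by their mean, summed to 8550 to 13893 FPKM in the wildtype and 7799 to 11002 FPKM in the knockout, a 1.78-fold range, with a median log2 change of -0.22 and 0 called in limma (0 at an unadjusted p under 0.05). The 8 cardiac muscle genes summed to 67.3 to 135 FPKM in the wildtype and 48.9 to 84.8 FPKM in the knockout. Of these Myh6 stayed at or under 0.0870 FPKM, Nppb was listed at 0 in 5 libraries, and Tnnt2 was the highest with 43.7 to 86.7 FPKM. Actc1, cardiac actin, measured 40.1, 9.34 and 13.6 FPKM in the wildtype and 2.04, 6.35 and 4.34 FPKM in the knockout libraries. The 11 colon epithelial genes with a row summed to 8346 to 11001 FPKM and 8451 to 12215 FPKM, with Zg16 and Krt19 the highest. Of their means 9 of 11 were higher in the knockout, and limma called 0 (0 at an unadjusted p under 0.05). In the list of 8 pacemaker and enteric neuron genes Ano1 and Uchl1 were the highest. Its sum was 92.3 to 104 FPKM in the wildtype and 111 to 119 FPKM in the knockout. Of this list limma called 1, Ano1, higher in the knockout (log2 change 0.56 ± 0.07, SE, adjusted p = 0.0361). The 6 tendon and cartilage genes summed to 90.9 to 118 FPKM and 97.3 to 115 FPKM, with 0 called. Thbs4 and Mkx were the highest of them. The 8 adipocyte genes summed to 169 to 265 FPKM and 118 to 142 FPKM, without overlap, and Lep was listed at 0 in knockout library 2. Of the 7 tested, limma called 0, and the median log2 change was -0.89. At an unadjusted p under 0.05 in limma 5 were lower and 1 higher (16.2% of all rows in either direction). The highest were Fabp4, a fatty acid binding protein, with 171, 128 and 109 FPKM in the wildtype and 62.7, 77.2 and 75.3 FPKM in the knockout, and Pck1, an enzyme of glucose and glycerol synthesis, which went the other way with 22.0, 25.7 and 24.4 FPKM and 41.8, 37.3 and 32.4 FPKM.

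**Figure D4:**
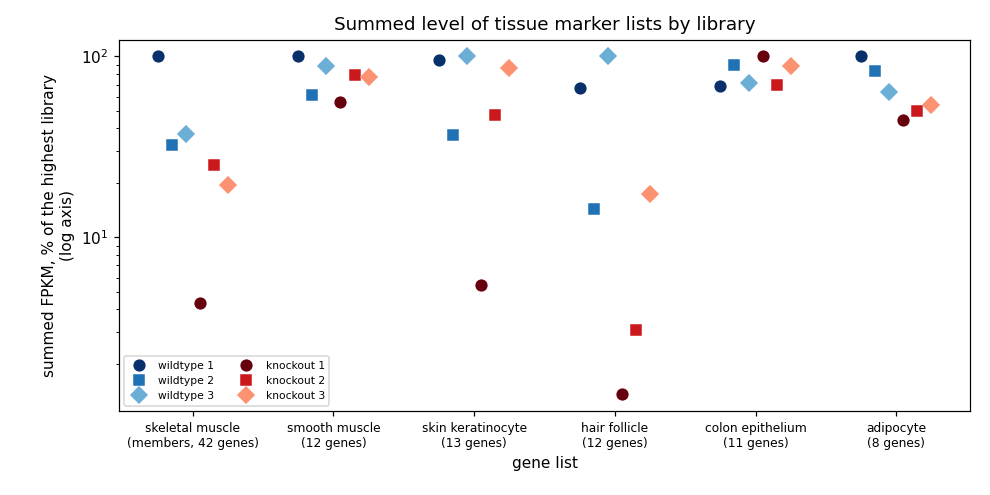
Summed FPKM of 6 gene lists in each library as a percent of the highest library, on a log axis, with the symbols used for libraries throughout. Skeletal muscle spans 23.1-fold and skin 18.2-fold, while smooth muscle spans 1.78-fold, and knockout library 1 is the lowest library in all of these lists but colon epithelium, where it is the highest.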

How the data were processed

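FPKM per gene and library were deposited by the authors in 1 table of the whole series. Per the series' design text, paired-end reads were aligned with Tophat2 and Bowtie2, assembled with Cufflinks and tested with Cuffdiff 2. Reads were mapped to mm10, as the submitters' processing notes list. For the tool versions, annotation, strandedness and library scaling, no statement is given in the sources used here. The p-values and adjusted p-values of the authors' deposited table were copied, as was its log2 fold change, and the authors' group FPKM were used only for Ttn.

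Groups and replicate numbers came from the sample titles. Depth per library is unknown from FPKM, so no counting interval was computed. Rows without a gene name (6.13% of rows, 17.7% of summed FPKM) were left out, and 340 rows of several genes stayed in. The test was limma 3.58.1 (R 4.3.3) on log2(FPKM + 1), with trend and robust moderation, all 6 libraries, no covariate, and a minimum mean of 0.5 FPKM. Such changes understate those of low genes. On simulated libraries of 14564 genes with 200 changed, 32.5%, 81.5% and 95.5% of changes of 0.5, 1 and 2 (log2) were recovered. The changed genes were drawn at random from all but the low rows, with noise independent between genes. Members shared a course and had large standard errors, such as 1.15 for Acta1 and 1.31 for Mylpf. The recovery rates therefore do not hold for the members, and 0 called members does not mean no change. Isoform shares were compared by exact permutation tests over 20 assignments. Positions and the 250 bases before gene starts are from RefSeq, GRCm38.p6. All 43 member rows overlapped their RefSeq position. Figures were drawn with matplotlib 3.10.9 and tables made with Python 3.11.15, numpy 2.4.6 and pandas 2.3.3.

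Members, lists and tests were chosen with earlier results of these data known. Values in every library are given by rule for the 4 highest members of each role, members in an isoform share, the 5 farthest from the median profile and members below the minimum. The rule also named the 2 highest genes of other-tissue lists, by their mean over the 6 libraries, and the 12 rows nearest in course. Not all of these are given with values in every library. Further genes with values in every library were picked after the values were seen. Alternatives covered the pseudocount, the minimum, moderation, scaling, the replicate block and each library left out.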

Additional observations from a re-analysis of the deposited data

How the results depend on the processing

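The count of 0 called members was the same with a pseudocount of 0.1 or 5, no minimum, a minimum mean of 2 FPKM, limma without trend and robust moderation, rescaling to the other rows, quantile normalisation and any single library left out. The count was also 0 with the median member profile as covariate, but that fit takes out the members' shared change, so nothing is read from it. It became 1 (Myh4, log2 change -1.62, limma adjusted p = 0.0438) without wildtype library 1 and knockout library 1, where 0.103% of all rows were called lower. With any single library left out the median log2 change of the members ranged from -2.27 to -0.93 and the difference in their share of summed FPKM from -1.17 to -0.400 points, and it was -0.259 points without both libraries. Leaving out knockout library 1 turned the Myh1 share difference from -0.411 to 1.26 points (range over single libraries -1.49 to 1.26) and the slow regulatory light chain share difference to -0.00421 points (range -0.00421 to 0.0896). The Ttn change (range over single libraries -0.96 to 0.19) turned to 0.19 without wildtype library 1 and to 0.62 without both libraries. Rows lower relative to Acta1 in every knockout library numbered 14 with Tnnc2 and 9 with the median member as reference. The cause of these changes was not tested.

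Replicate numbers are shared by the genotypes. Deviations of same-numbered libraries from their group means correlated at -0.375, -0.337 and 0.209 over genes. Such deviations are bound to one another within a group of 3, so these values cannot show whether the numbers pair the libraries. With the replicate number as a block 0 members were called, and 24 rows in all, against 42 without it. Counts over all rows were 74 without wildtype library 2, 27, 22 and 21 without wildtype libraries 1 and 3 and knockout library 3, and 21 with the covariate. Member rows with an unadjusted p under 0.05 in limma numbered 7, and 1 with the block, 18 without trend and robust moderation, 11 with no minimum and 3 to 11 without single libraries. Depth cannot be read from FPKM, so the counting error of low members such as Myh7 and Myl2 is unknown.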
